A study of Mus musculus with 10 samples.

Results

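Neat1, Malat1, Rsrp1, Clk1, Clk2, Clk3 and Clk4 were followed across mouse skeletal muscle RNA as a set of 7 transcripts that stay in the nucleus or keep introns, out of 43629 genes counted. Neat1, Clk1 and Rsrp1 had been picked because their level was higher in the knockout immunoprecipitate, and Malat1, Clk2, Clk3 and Clk4 were added as their relatives. All 7 were found by their Ensembl identifiers in every library. All 7 also passed the filter on low counts in every comparison.

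The study addressed what IMP2, an RNA-binding protein encoded by Igf2bp2, does in adult muscle. Each library came from skeletal muscle of male C57BL/6 mice aged 6 weeks that had been on a high-fat diet (HFD) for 2 weeks, so diet, age, sex and strain were shared by all groups. KO IP (2 libraries) was RNA recovered with a home-made IMP2 antibody from knockout muscle, that is, from muscle labelled as lacking the antibody's target, and WT IP (2 libraries) was the same recovery from wild-type muscle. KO total (3 libraries) and WT total (3 libraries) were total RNA of the same genotypes. The sample labels call the knockout IMP2 null, whereas the series description calls it muscle-specific. The sources used here name neither the Cre line nor the deleted exons. No label ties the libraries to separate animals, and p-values therefore reflect only how far these libraries spread, which may be technical.

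Neat1 is the long non-coding RNA around which paraspeckles, a kind of nuclear body, are built, and Malat1 is an abundant long non-coding RNA of nuclear speckles. Clk1, Clk2, Clk3 and Clk4 encode the CDC-like kinases, which phosphorylate SR proteins, a family of splicing factors rich in arginine and serine, and so release them from speckles. In mouse cells, Clk1 and Clk4 transcripts that still hold introns are known to wait in the nucleus and to be spliced to completion later. Rsrp1 encodes a small protein rich in arginine and serine whose role is little studied. Proteins of the IMP family are cytoplasmic for the most part and have been reported to bind methylated adenosine in the sequence GGAC.

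In the GRCm38 annotation of GENCODE M21, Neat1 (ENSMUSG00000092274, chr19:5824708-5845478, minus strand) and Malat1 (ENSMUSG00000092341, chr19:5795690-5802672, minus strand) are neighbouring intergenic long non-coding RNA genes. Rsrp1 (ENSMUSG00000037266) lies on chr4:134923592-134927671, plus strand. Clk1 (ENSMUSG00000026034) lies on chr1:58410189-58424066, minus strand, and Clk2 (ENSMUSG00000068917) on chr3:89164795-89176921, plus strand. Clk3 (ENSMUSG00000032316) lies on chr9:57750624-57765860, minus strand, and Clk4 (ENSMUSG00000020385) on chr11:51261730-51281766, plus strand. Of the annotated transcripts, 7 of 13 for Clk1, 7 of 14 for Clk4, 4 of 11 for Clk2, 4 of 9 for Clk3 and 1 of 8 for Rsrp1 are classed as retaining an intron. At least 1 such transcript is thus annotated for each of the 5 protein-coding members, against 9078 of 21474 protein-coding genes (42.3%) in the files. Since the set was named for intron retention, this is a check of its label and not a finding. Counts per gene cannot tell a spliced transcript from one that keeps an intron.

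GGAC was searched on the transcript strand in the longest protein-coding transcript of each coding gene and in the longest transcript of the others. The stretches below are the 60-base windows of each member with the most matches, within 1 coding exon for the coding genes, and are shown so that the letters which IMP proteins are reported to bind can be seen in each RNA. They are written 5′ to 3′ on the transcript strand from the GENCODE M21 transcripts (GRCm38), and capitals mark GGAC.
Neat1: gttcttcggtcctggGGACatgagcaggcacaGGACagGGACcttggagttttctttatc
Malat1: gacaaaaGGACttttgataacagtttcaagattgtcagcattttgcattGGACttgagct
Rsrp1: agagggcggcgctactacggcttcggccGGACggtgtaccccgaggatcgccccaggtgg
Clk1: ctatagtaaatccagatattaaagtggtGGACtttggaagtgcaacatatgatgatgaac
Clk2: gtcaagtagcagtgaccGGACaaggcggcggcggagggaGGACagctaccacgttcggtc
Clk3: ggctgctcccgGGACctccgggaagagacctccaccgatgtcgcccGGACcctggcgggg
Clk4: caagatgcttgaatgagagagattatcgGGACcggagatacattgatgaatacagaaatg

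The windows lie at chr19:5832091-5832150 (minus strand) for Neat1, chr19:5801417-5801476 (minus) for Malat1, chr4:134924359-134924418 (plus) for Rsrp1 and chr1:58414426-58414485 (minus) for Clk1. Those of Clk2, Clk3 and Clk4 lie at chr3:89167139-89167198 (plus), chr9:57765265-57765324 (minus) and chr11:51271814-51271873 (plus). A 60-base window with at least 3 GGAC, as in Neat1, was present in 19% of 31472 transcripts of 500 bases or more, one with at least 2 in 68.3%, and one with at least 1 in 98%. These shares were taken over whole transcripts, without the limit to 1 coding exon set for the coding members. They also take no account of length, and Neat1, at 20771 bases, holds many windows. Over the whole transcript, the density of GGAC differed widely among the CLK genes. Clk2 had 19 matches, or 8.82 per kb, a density reached by 2.07% of the transcripts, whose median was 3.73 per kb. Clk1 had 2 matches, or 1.11 per kb, and 95.2% of transcripts had at least that density. Neat1 (83 matches, 4 per kb), Clk3 (10 matches, 4.01 per kb) and Clk4 (7 matches, 3.59 per kb) were near the median. Malat1 had 16 matches (2.29 per kb) and Rsrp1 had 9 (5.15 per kb). A match is a description of the letters and shows neither binding nor methylation.

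Library depth, as reads counted in genes, was 917462 and 4037480 in KO IP, 2159115 and 2547124 in WT IP, 9691580 to 10739792 in KO total and 12299030 to 14809788 in WT total. Muscle fibre markers (Acta1, Ckm, Myh4, Mylpf and Tnnt3) were above 0 in every library. Their summed level was 51930 to 72260 CPM (reads relative to library size, scaled with TMM factors) in KO IP, 74810 to 92750 in WT IP, 175400 to 239500 in KO total and 82750 to 165500 in WT total. Transcripts of other tissues were present in several libraries. Pancreatic islet markers summed to 132.6 to 350.3 CPM in KO IP, 40.75 to 318.8 CPM in WT IP and 2256 CPM in KO total library 1, against no more than 1.002 CPM in each of the remaining total RNA libraries. Fat markers were highest in WT total library 2, at 973.1 CPM. WT total library 3 stood apart from the other WT total libraries in the transcripts described here and had the lowest fibre marker sum. Igf2bp2, the targeted gene, had 9 and 25 reads in KO IP, 28 and 4 in WT IP, 21, 19 and 21 in KO total, and 35, 37 and 48 in WT total. It did not separate the genotypes beyond the spread between libraries (log2 difference in total RNA -0.36 ± 0.28 SE, edgeR adjusted p = 0.897), so it does not serve as a check of the genotype labels.

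**Figure D1:**
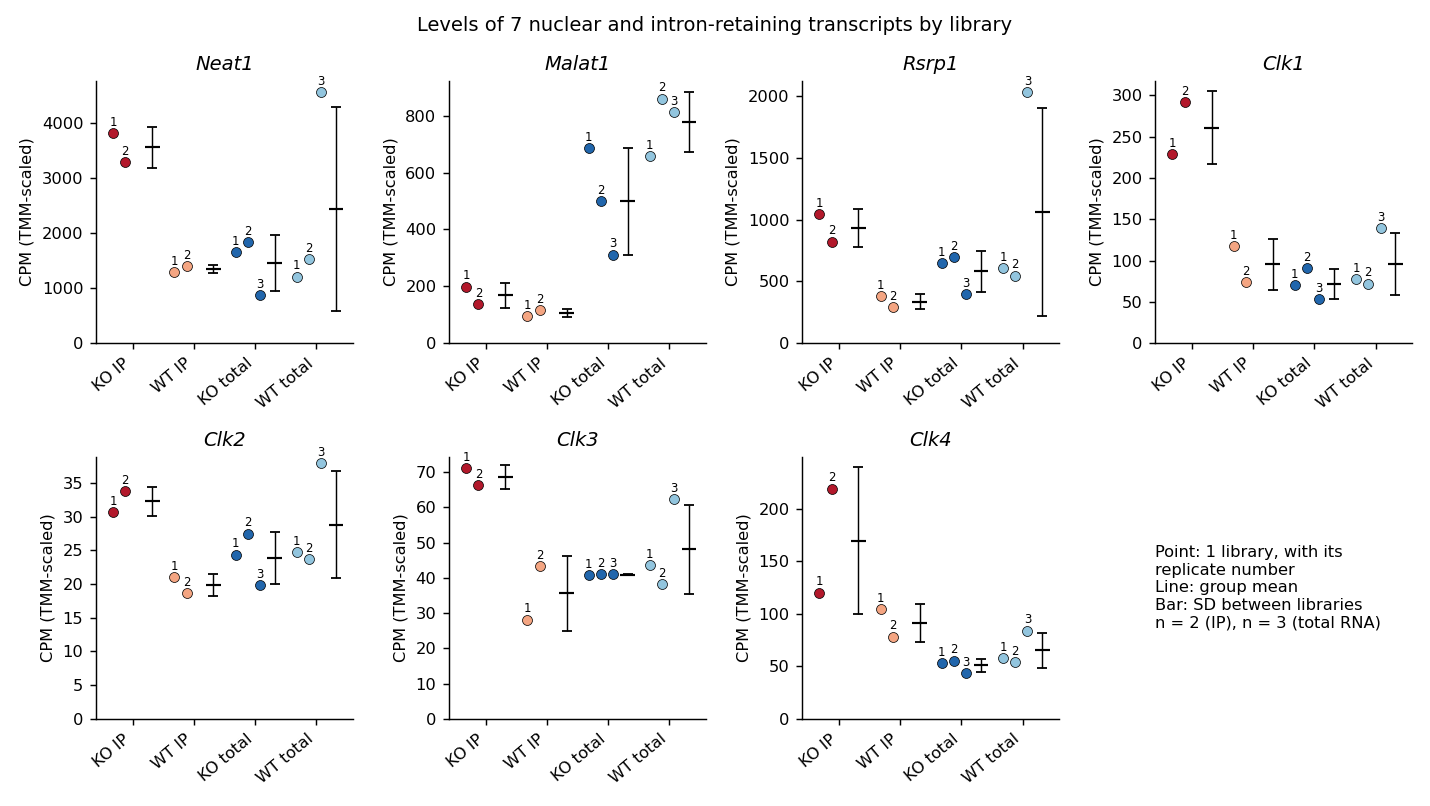
Level of each of the 7 transcripts (vertical axis, CPM scaled with TMM factors) in every library of KO IP, WT IP, KO total and WT total (horizontal axis); each point is 1 library with its replicate number, and the line and bar beside it are the group mean and SD (n = 2 for IP, n = 3 for total RNA). The KO IP libraries lie above the WT IP libraries in all 7 panels, and WT total library 3 is the highest WT total library for all but Malat1.

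Neat1 varied more among the total RNA libraries than among the IP libraries. It had 3829 and 3302 CPM in KO IP, 1299 and 1396 CPM in WT IP, 1650, 1835 and 880 CPM in KO total, and 1211, 1523 and 4572 CPM in WT total. The IP groups did not overlap, with KO IP above, whereas the total RNA groups overlapped because WT total library 3 lay far above and KO total library 3 below the rest. Mean levels were 3565 ± 372 CPM in KO IP, 1347 ± 68.5 CPM in WT IP, 1455 ± 506 CPM in KO total and 2436 ± 1857 CPM in WT total (SD, n = 2, 2, 3 and 3). The largest of the WT total values thus exceeded the smallest by 3.78 times, against 1.08 times between the WT IP libraries. That sets 3 libraries against 2 and rests on WT total library 3, since WT total libraries 1 and 2 had 1211 and 1523 CPM.

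Malat1 showed a different order of groups. It had 199 and 137 CPM in KO IP, 96.2 and 115 CPM in WT IP, 687, 499 and 311 CPM in KO total, and 658, 860 and 813 CPM in WT total. Every IP library was below every total RNA library of either genotype. Within the IP, both KO libraries were above both WT libraries, and in total RNA KO total library 1 lay within the WT total range. Malat1 overlaps 453 exon bases of Gm37376 on the opposite strand, and since the strand setting of the counting was not given, reads from the pair cannot be told apart.

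Like Neat1, Rsrp1 was highest in WT total library 3. Unlike Neat1, whose WT IP and WT total ranges overlapped, Rsrp1 had WT IP wholly below WT total. It had 1041 and 822 CPM in KO IP, 379 and 291 CPM in WT IP, 649, 697 and 394 CPM in KO total, and 609, 545 and 2030 CPM in WT total. KO IP was above WT IP without overlap. In total RNA, libraries 1 and 2 of KO lay a little above libraries 1 and 2 of WT, KO library 3 was the lowest and WT library 3 the highest by far.

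The 4 CLK transcripts did not share 1 profile. Clk1 had 229 and 292 CPM in KO IP, 118 and 74.0 CPM in WT IP, 70.3, 90.5 and 53.7 CPM in KO total, and 77.2, 72.0 and 139 CPM in WT total. Clk4, its closest relative in sequence, had 120 and 219 CPM in KO IP, 104 and 78.2 CPM in WT IP, 53.3, 55.4 and 43.4 CPM in KO total, and 57.4, 54.0 and 83.8 CPM in WT total. For both, KO IP lay above WT IP and above all total RNA libraries, while WT IP overlapped WT total. The gap between genotypes in the IP was narrow for Clk4, whose KO IP library 1 (120 CPM) was close to WT IP library 1 (104 CPM). Reads that aligned to both of these related genes would be among those aligned to several places, which were given to no gene.

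Clk2 and Clk3 showed smaller differences between IP and total RNA in KO muscle. Clk2 had 30.7 and 33.8 CPM in KO IP, 21.0 and 18.7 CPM in WT IP, 24.4, 27.5 and 19.8 CPM in KO total, and 24.8, 23.7 and 37.9 CPM in WT total. Clk3 had 71.0 and 66.3 CPM in KO IP, 28.1 and 43.2 CPM in WT IP, 40.7, 41.0 and 41.0 CPM in KO total, and 43.6, 38.3 and 62.4 CPM in WT total. KO IP was above WT IP without overlap for both genes. In KO IP library 1 these levels rest on 32 reads for Clk2 and 74 for Clk3, so counting error is largest there. Clk3 shares 1284 exon bases with Edc3 on the opposite strand, so its counts may hold Edc3 reads.

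Per kb of annotated exon, Rsrp1 had the highest mean level of the 7 in every group, at 278 CPM per kb in KO IP, 100.1 in WT IP, 173 in KO total and 317 in WT total. Neat1 came next in KO IP (172 CPM per kb) and WT IP (64.9), with no overlap with either neighbour in the order. In total RNA Neat1 and Malat1 overlapped, at 70.1 and 71.4 CPM per kb in KO total and 117 and 111 in WT total, and in WT total Rsrp1 also overlapped Neat1. The CLK genes came last in both total RNA groups, in the order Clk1, Clk4, Clk3 and Clk2. There Clk1 did not differ from Clk4 beyond the spread (8.79 and 8.75 CPM per kb in KO total, 11.8 and 11.2 in WT total), nor Clk3 from Clk2 (4.84 and 4.51 in KO total, 5.70 and 5.43 in WT total). In KO IP, Clk1 (32.1 CPM per kb), Clk4 (29.2) and Malat1 (24.0) overlapped in turn, followed without overlap by Clk3 (8.13) and Clk2 (6.08). In WT IP, Clk4 (15.7), Malat1 (15.1) and Clk1 (11.8) overlapped in turn, and Clk3 (4.22) and Clk2 (3.75) overlapped below them. The exon lengths include retained introns, which lowers the value per kb of genes with such transcripts, the CLK genes among them. Neat1 was divided by 20771 bases, the length of the longest of its 4 annotated transcripts. The order of the 7 thus depends on the lengths used.

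Ratios of read counts within a library need no scaling between libraries. Neat1 and Clk1 were picked for a high level in KO IP, so a higher ratio over Malat1 or Clk2 in KO IP than in WT IP restates that choice and is only described. Neat1 had 19.3 and 24.1 reads for each Malat1 read in KO IP and 13.5 and 12.1 in WT IP. That ratio was 2.40, 3.68 and 2.83 in KO total, and 1.84, 1.77 and 5.62 in WT total. The Neat1 to Malat1 ratio was higher in every IP library than in any total RNA library, and higher in KO IP than in WT IP. For each Clk2 read there were 7.47 and 8.64 Clk1 reads in KO IP, 5.60 and 3.96 in WT IP, 2.89, 3.30 and 2.71 in KO total, and 3.12, 3.03 and 3.67 in WT total. Again all IP libraries lay above all total RNA libraries, and KO IP above WT IP. Clk4 to Clk2 ratios were 3.91 and 6.49 in KO IP, 4.96 and 4.19 in WT IP, 2.02 to 2.19 in KO total and 2.21 to 2.32 in WT total, so the IP groups overlapped each other but not the total RNA groups. Clk3 to Clk2 ratios ran from 1.34 to 2.31 in the IP libraries and from 1.49 to 2.07 in total RNA. There KO IP (1.96 to 2.31) lay above WT total (1.61 to 1.76), and the other pairs of groups overlapped. Clk1 to Clk4 ratios in WT IP (0.945 and 1.13) lay below every total RNA library (1.24 to 1.66). Those in KO IP (1.33 and 1.91) overlapped both total RNA groups. Rsrp1 to Clk3 ratios were 12.4 to 14.7 in KO IP and 6.74 to 13.5 in WT IP. They were 9.62 to 17.0 in KO total and 14.0 to 32.5 in WT total, so WT IP lay below WT total. How many gene pairs separate IP from total RNA was not computed.

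**Figure D2:**
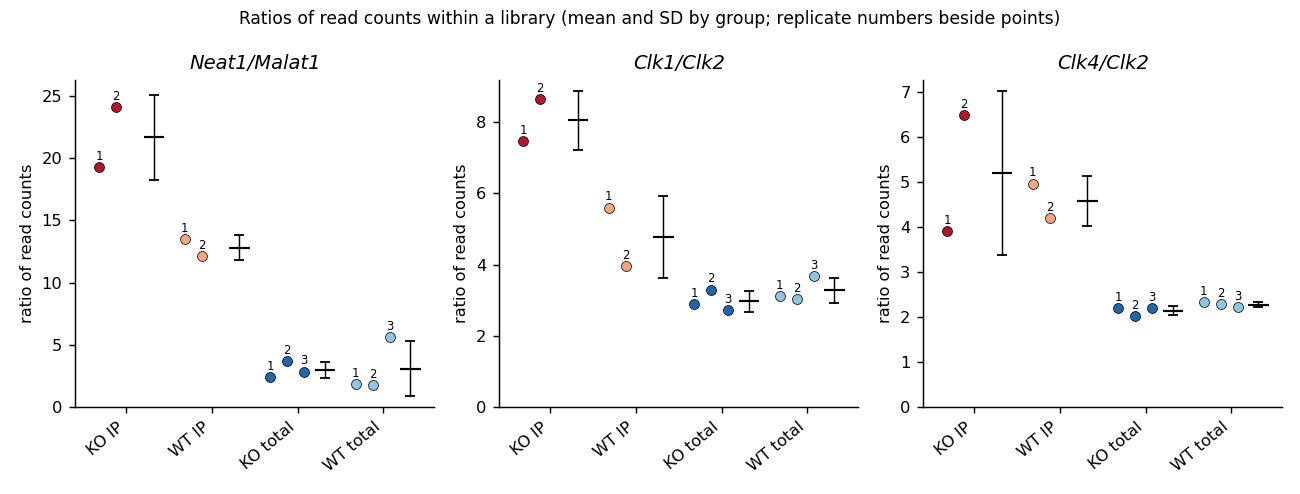
Ratio of read counts of Neat1 to Malat1, Clk1 to Clk2 and Clk4 to Clk2 (vertical axes) in each library of KO IP, WT IP, KO total and WT total (horizontal axis); points are libraries with their replicate numbers, and the line and bar beside them are the mean and SD. All IP libraries lie above all total RNA libraries in each panel, and KO IP lies above WT IP for Neat1 to Malat1 (19.3 and 24.1 against 13.5 and 12.1) and for Clk1 to Clk2, whose numerators were picked for a high level in KO IP.

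The comparison of KO with WT total RNA asks whether loss of IMP2 was accompanied by a change in transcript level. None of the 7 transcripts passed the test (edgeR quasi-likelihood, adjusted p = 0.897 for each), and 0 of 13169 genes did (0%). At an unadjusted p under 0.05 there were 569 genes, and DESeq2 called 5. The estimates were nevertheless below 0 for all 7, with a median log2 difference of -0.43, while the median of all genes was -0.01 with 48% of genes above 0. Malat1, at -0.65 ± 0.27 (SE), had the smallest unadjusted p of the 7. Rsrp1 was at -0.89 ± 0.48 and Neat1 at -0.76 ± 0.49, with the widest errors, and Clk1 at -0.43 ± 0.28. Clk4 (-0.37 ± 0.20), Clk2 (-0.28 ± 0.22) and Clk3 (-0.24 ± 0.19) had smaller estimates. For all 7 the KO total and WT total ranges overlapped, whereas 5.06% of genes lay wholly higher and 4.56% wholly lower in KO. In bulk RNA of this kind, fewer cells of a type and less RNA per cell cannot be told apart.

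Apart from Malat1, the estimates rested largely on 1 library. WT total library 3 exceeded the mean of WT total libraries 1 and 2 by 3.52 times for Rsrp1, 3.34 times for Neat1, 1.86 times for Clk1, 1.56 times for Clk2, 1.52 times for Clk3 and 1.51 times for Clk4, but by 1.07 times for Malat1. Among 14371 genes, the ratios of Rsrp1 and Neat1 stood at percentiles 99 and 98.9, and that of Malat1 at 58.3. Without WT total library 3 the estimates were 0.092 for Neat1, 0.011 for Rsrp1, 0.003 for Clk3, -0.014 for Clk2, -0.054 for Clk1 and -0.13 for Clk4, while Malat1 stayed at -0.61. Malat1 moved more with the KO libraries, to -0.39 without KO total library 3 and -0.94 without KO total library 1. The same library, WT total 3, had the lowest fibre marker sum of the total RNA libraries (82750 CPM, against 157700 and 165500 in WT total libraries 1 and 2). It also had the highest share of reads outside genes (11.2%) and the lowest share of reads aligned to several places (26.1%). KO total library 3, the lowest KO total library for Neat1, Malat1, Rsrp1 and all CLK genes but Clk3, had the highest fibre marker sum (239500 CPM) and the lowest share of reads outside genes (8.54%). Fibre marker sums also did not overlap between the genotypes, at 175400 to 239500 CPM in KO total, against 82750 to 165500 CPM in WT total. The part of these differences in the result was not tested.

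**Figure D3:**
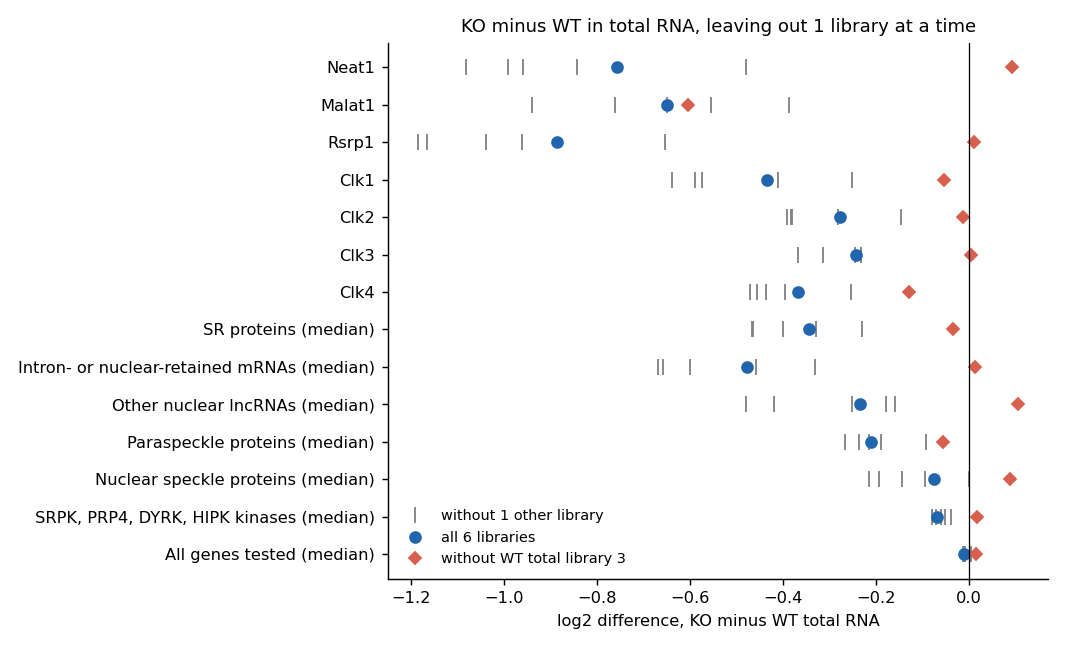
Log2 difference of KO minus WT in total RNA (horizontal axis) for the 7 transcripts and for the medians of 6 related gene lists and of all genes tested (rows), with all 6 libraries (circles), without WT total library 3 (diamonds) and without each other library in turn (ticks). Leaving out WT total library 3 brings Neat1 to 0.092 and Rsrp1 to 0.011, while Malat1 stays at -0.61.

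Genes that work with these transcripts were read in the same fit. None of the 13 paraspeckle protein genes passed the test, with 3 above and 10 below 0 and a median of -0.21. Tardbp, which encodes the RNA-binding protein TDP-43, was at -0.41 ± 0.21, Pspc1, a core paraspeckle protein, at -0.43 ± 0.25, Hnrnph3 at -0.34 ± 0.20 and Cpsf6, a subunit of the cleavage factor of polyadenylation, at -0.28 ± 0.19. Of 11 nuclear speckle protein genes none passed, 2 were above and 9 below 0, and the median was -0.08. Son, the scaffold protein of speckles, was at -0.42 ± 0.26, Pnn at -0.51 ± 0.33, Rbm25 at -0.35 ± 0.25 and Thrap3 at 0.19 ± 0.14.

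The SR proteins are the substrates of the CLK kinases. Of 12 SR protein genes tested (Srsf12 was filtered out) none passed and all 12 were below 0, with a median of -0.34. Srsf3 was at -0.34 ± 0.17, Srsf1 at -0.50 ± 0.30, Srsf5 at -0.58 ± 0.36 and Tra2a at -0.40 ± 0.26. Of 10 kinase genes tested from the related SRPK, PRP4, DYRK and HIPK families none passed, with 4 above and 6 below 0 and a median of -0.07. Hipk2 was at -0.60 ± 0.32, Prpf4b at -0.37 ± 0.24, Dyrk1b at 0.25 ± 0.17 and Dyrk1a at 0.24 ± 0.18.

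Of 11 other nuclear long non-coding RNAs tested none passed, with 4 above and 7 below 0 and a median of -0.23. Miat was at -0.63 ± 0.38, Airn at -0.43 ± 0.28, Firre at -0.80 ± 0.58 and Ftx at -0.51 ± 0.38. Of 14 other mRNAs known to keep introns or to stay in the nucleus none passed, with 1 above and 13 below 0 and a median of -0.48. Nktr was at -0.58 ± 0.26, Hnrnpdl at -0.43 ± 0.22, Mat2a, which encodes the enzyme that makes S-adenosylmethionine, at -0.51 ± 0.27 and Ddx5, an RNA helicase, at -0.48 ± 0.27. Without WT total library 3 the medians of the 6 lists lay between -0.06 (paraspeckle proteins) and 0.11 (long non-coding RNAs), with that of the SR proteins at -0.03 and that of the intron-keeping mRNAs at 0.01.

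In the IP, all 7 transcripts were higher in KO than in WT with no overlap of libraries. Across all 10730 genes of that comparison, 20.5% lay wholly higher and 20.6% wholly lower in KO IP. Because Neat1, Clk1 and Rsrp1 were chosen on this contrast, its values are given as a description with no test, and nothing is read from the count. The log2 difference was 1.48 ± 0.24 (SE) for Rsrp1, 1.46 ± 0.26 for Clk1 and 1.41 ± 0.23 for Neat1. The members added as relatives lay lower, at 0.94 ± 0.28 for Clk3, 0.93 ± 0.28 for Clk4, 0.72 ± 0.32 for Clk2 and 0.66 ± 0.25 for Malat1. The median over the 7 was 0.94, against 0.01 over all genes, of which 50.9% were above 0. Clk4 was at 0.41 without KO IP library 2 and 1.26 without KO IP library 1, and Malat1 at 0.93 without KO IP library 2 and 0.37 without KO IP library 1.

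All 6 related lists also had medians above 0 in KO IP relative to WT IP, each below that of the 7 transcripts. Of those 7, 3 were picked for a high value here, so nothing is read from this order. The 4 added as relatives lay at 0.66 to 0.94. The median was 0.67 for the intron-keeping mRNAs (12 of 14 above 0), 0.51 for the long non-coding RNAs (7 of 9), 0.49 for the SR proteins (11 of 12), 0.49 for the speckle proteins (9 of 11), 0.35 for the paraspeckle proteins (9 of 11) and 0.21 for the other kinases (6 of 10). The kinase median turned to -0.074 without KO IP library 1. Without WT IP library 1 that of the long non-coding RNAs was 0.19 and that of the paraspeckle proteins 0.17, and without KO IP library 2 that of the intron-keeping mRNAs was 0.44. Tra2a, a splicing factor of the SR family, was at 1.14 ± 0.34, Son at 0.81 ± 0.27 and Srsf5 at 0.74 ± 0.26. Other genes named above lay below 0, among them Srsf1 at -0.08 ± 0.25, Tardbp at -0.21 ± 0.23 and Hipk2 at -0.98 ± 0.45. Markers of some other cell types moved with the same contrast. Fibroblast markers (Col1a1, Col3a1, Pdgfra and Dcn, all above 0 in each library) summed to 5717 to 6226 CPM in KO IP, against 2651 to 3619 CPM in WT IP. Erythroid markers summed to 442.5 to 732 CPM in KO IP, where 1 of 4 was at 0 in a library, against 138.6 to 284.5 CPM in WT IP. Schwann cell markers summed to 412.7 to 416.5 CPM in KO IP, against 240.3 to 370.2 CPM in WT IP, and endothelial markers to 487.6 to 817.6 CPM, against 421 to 432.1 CPM. Fat markers (442.6 to 564.4 CPM in KO IP, against 465.1 to 738 CPM in WT IP), macrophage markers (156.2 to 166 CPM, against 75.13 to 255.8 CPM) and islet markers overlapped between the IP groups. Fibre markers were lower, at 51930 to 72260 CPM in KO IP, against 74810 to 92750 CPM in WT IP. The part of these markers in the result was not tested.

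**Figure D4:**
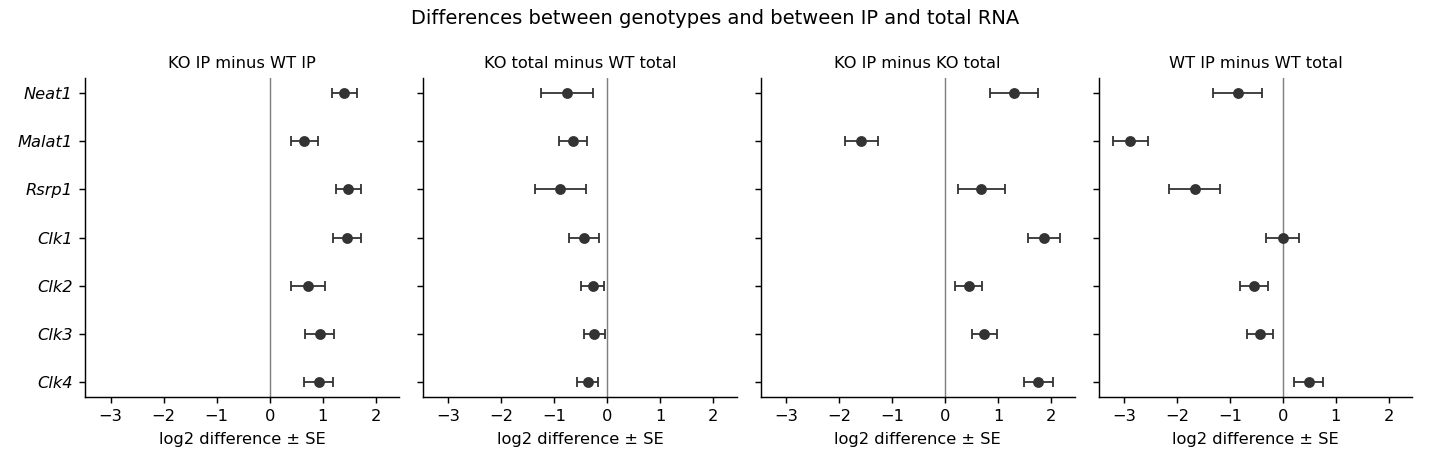
Log2 differences (horizontal axes, ± SE of the edgeR fit) of the 7 transcripts (rows) for KO IP minus WT IP, KO total minus WT total, KO IP minus KO total and WT IP minus WT total. The IP difference between genotypes is above 0 for all 7 (0.66 to 1.48), the total RNA difference is below 0 for all 7 with none past the test, and Malat1 is below 0 in both IP against total RNA panels.

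Setting the IP against total RNA of the same genotype asks which transcripts the precipitation held more or less of than the muscle did. Both comparisons and the one between genotypes in total RNA share the total RNA libraries. In KO muscle 36.5% of 14399 genes passed this test (17.7% higher and 18.8% lower in the IP), and in WT muscle 37% did (17.6% higher and 19.4% lower). Scaled by library size alone, the KO comparison called 4267 of its 5706 genes higher, and its all-gene median was 0.47 in place of 0.04, so the KO values below depend on the scaling by about that much. A call in these comparisons was common, and the test is given for the 4 members that were not themselves picked on the IP libraries. These 4 were added as relatives of the picked members, with earlier results of these data known. Their p-values are therefore not those of an independent choice.

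Malat1 was lower in the IP than in total RNA in both genotypes, by the test in the same fit. The log2 difference was -1.58 ± 0.31 in KO (edgeR adjusted p = 0.00142) and -2.88 ± 0.33 in WT (edgeR adjusted p = 3.03e-05). Clk4 was higher in the IP in KO muscle (1.76 ± 0.27, edgeR adjusted p = 0.000223), while in WT muscle it did not pass (0.49 ± 0.27, adjusted p = 0.171). Without WT total library 3 the WT value of Clk4 was 0.71 with an adjusted p of 0.0476. Clk3 was higher in the KO IP (0.74 ± 0.24, edgeR adjusted p = 0.0246) and did not pass in WT (-0.43 ± 0.24, adjusted p = 0.182). The KO call of Clk3 was lost without KO IP library 1 or 2 or KO total library 1 or 2, with log2 differences of 0.69 to 0.78 and adjusted p values from 0.0572 to 0.125. Clk2 passed in neither genotype, at 0.45 ± 0.25 in KO (adjusted p = 0.185) and -0.54 ± 0.26 in WT (adjusted p = 0.122).

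The 3 members chosen on the IP are given as a description. Clk1 was at 1.87 ± 0.31 in KO and -0.01 ± 0.31 in WT, Neat1 at 1.29 ± 0.45 in KO and -0.86 ± 0.47 in WT, and Rsrp1 at 0.68 ± 0.45 in KO and -1.66 ± 0.48 in WT. In KO muscle every IP library was above every total RNA library for 6 of the 7 and below for Malat1. Over all genes, 29.9% lay wholly higher and 31.3% wholly lower. Neat1, Clk1 and Rsrp1 were picked for their level in KO IP, so nothing is read from this count or the WT count that follows. Among the members added as relatives, Clk2, Clk3 and Clk4 were wholly higher and Malat1 wholly lower in KO. In WT muscle the groups overlapped for Neat1, Clk1, Clk3 and Clk4, and the IP was wholly lower for Malat1, Rsrp1 and Clk2, against 32.4% of all genes wholly lower and 27.4% wholly higher. Without WT total library 3, Neat1 was at -0.02 and Rsrp1 at -0.78 in WT.

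The KO difference of IP and total RNA minus the WT difference holds the contrast used to choose Neat1, Clk1 and Rsrp1 and is likewise a description. It was 2.35 ± 0.65 for Rsrp1, 2.15 ± 0.66 for Neat1, 1.88 ± 0.44 for Clk1, 1.29 ± 0.42 for Malat1, 1.28 ± 0.38 for Clk4, 1.17 ± 0.34 for Clk3 and 0.98 ± 0.37 for Clk2, against a median of 0.02 over all genes. Leaving out WT total library 3 gave 1.47 for Rsrp1 and 1.32 for Neat1, and leaving out KO IP library 2 gave 0.76 for Clk4.

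The related genes were spread in both directions in the IP relative to total RNA. The counts stand beside shares over all genes of 17.7% higher and 18.8% lower in KO, and 17.6% and 19.4% in WT. Where a list had few calls in a direction, genes are named, and these names were chosen after their values were seen. Of 12 SR protein genes, 5 were higher in the KO IP (Srsf3, Srsf7, Srsf9, Srsf11 and Tra2a), 1 was lower (Srsf2) and 6 did not pass. In WT, 2 of the 12 were higher (Srsf3 and Srsf9), 4 were lower (Srsf1, Srsf2, Srsf4 and Srsf5) and 6 did not pass. Srsf3 had a log2 difference of 1.64 ± 0.20 in KO (adjusted p = 5.24e-05) and 0.86 ± 0.20 in WT (adjusted p = 0.00399). Tra2a was at 1.73 ± 0.34 in KO (adjusted p = 0.00133) and at 0.20 ± 0.35 in WT (adjusted p = 0.678).

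Of 11 speckle protein genes, 3 were higher in the KO IP (Son, Rbm25 and Bclaf1), 4 were lower (Thrap3, Rnps1, Pnn and Srrm2) and 4 did not pass. In WT none was higher, the same 4 were lower and 7 did not pass. Over all genes, 17.7% were higher and 18.8% lower in KO, and 17.6% and 19.4% in WT. Son was at 1.41 ± 0.30 in KO (adjusted p = 0.00256) and at 0.20 ± 0.31 in WT (adjusted p = 0.638). Among the paraspeckle protein genes, Dazap1 and Rbm14 were higher in the IP of both genotypes. Nono and Pspc1 were lower in both, and Sfpq, Taf15 and Cpsf6 were lower in WT. Pspc1 was at -1.41 ± 0.47 in KO (adjusted p = 0.0304) and at -2.29 ± 0.49 in WT (adjusted p = 0.00228).

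Among the 14 intron-keeping mRNAs, 5 were higher in the KO IP (Ccnl1, Ccnl2, Rbm39, Luc7l and Snrnp70), 3 were lower (Nktr, Slc7a2 and Pnisr) and 6 did not pass. In WT none was higher, 6 were lower and 8 did not pass. For these and the counts below, the all-gene shares were 17.7% higher and 18.8% lower in KO, and 17.6% and 19.4% in WT. Nktr was at -1.28 ± 0.31 in KO (adjusted p = 0.00582) and at -2.11 ± 0.32 in WT (adjusted p = 0.000201). Among the 12 other long non-coding RNAs tested, Mirg was higher and Tug1 and Rian were lower in the KO IP, and Tug1 and Miat were lower in the WT IP. Among the 10 other kinases, Srpk1, an SR protein kinase of the cytoplasm, was higher in both genotypes. In KO 6 were lower and 3 did not pass, and in WT 5 were lower and 4 did not pass. Hipk2 was at -2.66 ± 0.42 in KO (adjusted p = 0.000289) and at -2.25 ± 0.37 in WT (adjusted p = 0.000401).

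Likeness of profiles was measured as the root mean squared difference of log2 CPM over the 10 libraries, each gene centred on its own mean. Clk2 and Clk3 were the closest pair of the 7 (0.25), followed by Clk1 and Clk4 (0.28) and by Neat1 and Rsrp1 (0.39). Malat1 was farthest from each of the others (1.07 to 1.67). Among 8050 genes with a mean of at least 10 CPM, the closest to Neat1 were Xpo6, which encodes the exportin of actin (0.23), Aox1, an aldehyde oxidase (0.27), Zfp692 (0.27), Tmem150a (0.27) and Cpeb1, a protein that binds polyadenylation elements in mRNA (0.27), against a median of 0.90. The closest to Clk1 were Mndal (0.19), Ccnl2, which encodes cyclin L2 of nuclear speckles (0.20), Ints6l, of the Integrator complex family (0.20), Ccm2l (0.20) and Dffb, a nuclease of apoptosis (0.21), against a median of 0.86. These values describe 10 libraries that differ in genotype, in IP and in depth.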

How the data were processed

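Counts of reads per Ensembl gene, 1 file per library, were used as deposited by the authors. The submitters' processing notes name STAR, HTSeq and the mm10 / GRCm38 build, and the TruSeq kit used for the libraries is known per the labels' protocols. The sources used here give no versions, annotation release or strand setting. Symbols were found for 42462 of 43629 genes, and the 1167 without one took up to 0.129% of the counts in any library. The closing lines of each file (reads outside genes at 8.54% to 11.2%, reads aligned to several places at 26.1% to 43.3%) stayed out of totals and tests.

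After filterByExpr and TMM scaling, the two-sided quasi-likelihood F test of edgeR 4.0.16 (R 4.3.3) was run on a model of group alone. Its p-values were adjusted by Benjamini-Hochberg over all genes, with a threshold of 0.05. Total RNA was fitted on 6 libraries, the IP on 4, and IP against total RNA on all 10. Standard errors (SE) belong to the log2 differences of these fits. Levels are CPM with TMM factors of the 10 libraries, and lengths are merged exons of GENCODE M21. Replicates differed by more than sampling noise, so none was counted as a copy of another. Same-numbered KO and WT libraries did not deviate together. Same-numbered IP and total RNA libraries correlated at 0.095 to 0.149, and differently numbered ones of the same genotype at -0.149 to 0.006. With 2 IP libraries in a group, their deviations mirror each other, so these values are not independent. No label says that the numbers mark shared animals, so no block was used in the main fits.

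The 7 members and the gene lists were chosen with earlier results of these data known. Named genes were the 7 members, Igf2bp2, up to 4 genes of each list with the smallest p in total RNA, and for Neat1 and Clk1 the 5 genes of most similar profile. Further list genes called in IP against total RNA were named after their values were seen. Of 14 long non-coding RNAs listed, 12 were found. A result on 1 listed gene is not reported here. Alternatives were DESeq2 1.42.0, library size alone, no filter, a replicate block, fits within a genotype, KO total library 1 and WT total library 2 left out together, and each library left out in turn. Each test was tested on simulated data. Counts set the precision, from 917462 reads in an IP library to 14809788 in total RNA.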

Additional observations from a re-analysis of the deposited data

Results flagged for a closer look

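Rsrp1 and Clk2 differed in opposite directions between IP and total RNA in the 2 genotypes. For Rsrp1 every KO IP library was above every KO total library (log2 difference 0.68), and every WT IP library was below every WT total library (-1.66). For Clk2 the same held, with 0.45 in KO and -0.54 in WT, though it passed in neither (edgeR adjusted p = 0.185 and 0.122). Over all 14399 genes, 29.9% lay wholly higher in the KO IP and 32.4% wholly lower in the WT IP. The share of genes with both patterns was not computed. The difference between genotypes was not tested for either gene, and Rsrp1 had been chosen for its level in the KO IP. Without WT total library 3, the WT value of Rsrp1 was -0.78 and that of Clk2 -0.29.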

How the results depend on the processing

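All 7 transcripts were above 0 in the KO to WT comparison of the IP under every alternative run, and below 0 in total RNA under all but 1. Without WT total library 3 the total RNA values of Neat1, Rsrp1 and Clk3 turned to 0.092, 0.011 and 0.003 (adjusted p = 1 for each), and those of the other 4 stayed below 0. Over all fits without 1 library Neat1 ran from -1.083 to 0.092, Rsrp1 from -1.186 to 0.011 and Clk3 from -0.37 to 0.003. The count of genes called in total RNA, 0 with edgeR and 0 in every fit without 1 library, was 5 with DESeq2 and 64 with no filter on low counts. In KO, the 5251 genes that differed between IP and total RNA ranged from 2148 (without KO IP library 2) to 5706 over the fits without 1 library. In WT, the 5325 ranged from 3765 to 5475. Over the fits without 1 library, the median of the 7 in the IP ranged from 1.01 to 1.26, above the 0.944 of the main fit. DESeq2 gave 0.937 there, no filter 0.936 and library size alone 1.095. For the difference of differences, that median was 1.294 in the main fit and 1.668 with library size alone. It ranged from 1.18 to 1.63 over the fits without 1 library. Scaling by library size alone put the all-gene median at 0.47 for KO IP against KO total, at -0.23 for total RNA and at 0.16 for the IP. It then called 4267 genes higher in KO IP than KO total, against 2551 with TMM factors, and Clk2 passed there (0.87, adjusted p = 0.0479). With the replicate number as a block, total RNA had 0 calls, the median of the 7 in the IP was 0.96, the counts for IP against total RNA were 4515 in KO and 4526 in WT, and the difference of differences had a median of 1.35. The block changed no call on the 7 transcripts. Same-numbered total RNA libraries of KO and WT had deviations correlated at 0.09, -0.11 and -0.30. Same-numbered IP and total RNA libraries were at 0.126 and 0.149 in KO and 0.107 and 0.095 in WT. Differently numbered IP and total RNA libraries of the same genotype were at -0.149 to 0.006. Without KO total library 1 (islet transcripts) and WT total library 2 (fat transcripts), total RNA had 0 calls and all 7 values were below 0 (-1.28 to -0.37). Groups of 2 IP libraries and 32 Clk2 reads in the shallowest library limit what can be told apart.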
